A study of Homo sapiens with 2 samples.

Results

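Iron handling was followed through 10 genes, which encode the ferritin subunits FTL and FTH1, the importers TFRC, SLC39A14 and SLC11A2, the reductase STEAP3, the ferritin receptor NCOA4, the regulators IREB2 and ACO1, and the haem-degrading enzyme HMOX1. They are 10 of the 36601 genes in the deposited count matrices, and all 10 were among the 10771 genes with a mean of at least 5 CPM (UMIs of a gene per 1000000 UMIs in cells, a UMI being the molecular tag that marks 1 captured transcript) over both libraries. The set was selected on measured values, since the CPM of these genes and the share of cells with a UMI were known when it was drawn up, so the levels are a description and no member was tested. MDA-MB-231 is an established human breast cancer cell line of mesenchymal appearance. D21 denotes revertant cells at day 21 in methionine-free RPMI-1640 with 100 µM L-homocysteine and 1.5 µM vitamin B12 (cyanocobalamin), and D0 denotes parental cells at day 0 in RPMI-1640 with 100 µM methionine. Dialysed, heat-inactivated fetal bovine serum was used for both. How much vitamin B12 the parental cells received was not stated in the sources used here. The comparison asks how the iron genes of cells adapted to methionine-free medium differ from those of the parental cells, with 1 library of each, so that differences between cultures cannot be told apart from differences between conditions.

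Ferritin is a hollow shell of light (FTL) and heavy (FTH1) chains that stores iron, the heavy chain oxidising ferrous iron on entry. The iron regulatory proteins, encoded by ACO1 (IRP1, also the cytosolic aconitase) and IREB2 (IRP2), bind iron-responsive elements (IREs) when cellular iron is low. An IRE in the 5′ untranslated region (UTR) of ferritin transcripts then blocks their translation, and IREs in the 3′ UTR of the transferrin receptor transcript protect it from decay. Ferritin transcription is raised by NRF2, and ferritin shells are delivered to lysosomes by NCOA4. Transcript counts therefore do not give the amount of ferritin protein.

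The elements themselves are shown because they are the part of these transcripts on which the iron regulatory proteins act. A search for a C, a stem of 5 bases, the loop CAGTGN and 5 further bases with at least 4 of 5 stem pairs (G with T allowed) was run on the transcript strand of the UTRs of GENCODE 29 transcripts for the 7 members with sequence entries, FTL, TFRC, NCOA4, SLC11A2, IREB2, ACO1 and STEAP3. A match is a description of letters and was found in the 5′ UTR of 1.23% and in the 3′ UTR of 4.52% of 19627 protein-coding genes. Capitals mark the 6 loop bases, and positions are on GRCh38.
FTL, 5′ UTR, exon 1 of 4, chr19:48965336-48965362, plus strand: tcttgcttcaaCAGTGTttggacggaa
TFRC, 3′ UTR, exon 19 of 19, match 1, chr3:196050980-196051006, minus strand: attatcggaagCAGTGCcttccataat
TFRC, 3′ UTR, match 2, chr3:196050576-196050602, minus strand: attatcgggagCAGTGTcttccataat
TFRC, 3′ UTR, match 3, chr3:196050511-196050537, minus strand: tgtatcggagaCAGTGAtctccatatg
TFRC, 3′ UTR, match 4, chr3:196050464-196050490, minus strand: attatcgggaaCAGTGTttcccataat
SLC11A2, 3′ UTR, exon 16 of 16, chr12:50988270-50988296, minus strand: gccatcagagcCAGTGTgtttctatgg

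All 5 stem pairs were present in the FTL match and in the 4 TFRC matches, and 4 of 5 in the SLC11A2 match. Elements with other loop letters or fewer stem pairs would be missed by this search, so the matches need not be all elements of a transcript. The TFRC matches 2 and 3 lay 65 bases apart and matches 3 and 4 lay 47 bases apart. IREB2 and ACO1 each had 1 match in the 3′ UTR with 4 of 5 pairs, and NCOA4 and STEAP3 had no such letters in their UTRs.

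The D21 library held 12487 cells and the D0 library 7492, with a median of 12022 UMIs per cell at D21 and 18908 at D0. The cells took 91.5% of all UMIs at D21 and 91.6% at D0, and 21 cell barcodes occurred in both libraries. VIM, CD44, KRT8 and KRT18, which this line expresses, lay between 341 and 2876 CPM at D21 and between 312 and 4157 CPM at D0. The luminal genes ESR1 and PGR, the leukocyte gene PTPRC, the globin genes HBB, HBA1 and HBA2, and the fibroblast gene DCN were each below 0.5 CPM in both libraries, while CD14, COL1A1, COL1A2 and LUM reached at most 1.05 CPM and ERBB2 and EPCAM lay between 9.46 and 11.8 CPM. Mitochondrial genes took 6.52% of cell UMIs at D21 and 5.81% at D0. UMIs were counted at the 3′ end of transcripts, so levels of different genes are not scaled by length and depend on how well each 3′ end is captured.

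FTL rose and HMOX1 fell, where a difference was counted if the D21 level was at least 25% higher or at least 20% lower than the D0 level, and the other 8 members stayed within these limits. Of the 10 members, 5 were higher and 5 lower at D21. Their median log2 ratio was -0.05, and that of all 10771 genes was -0.01. FTL was the only member at least 25% higher, a size that 7.08% of all genes reached. HMOX1 was the only member at least 20% lower, as were 14.6% of all genes, and it passed the 5 CPM filter only through its D0 level. These 2 of 10 members are read against that background and are not a result about the set. All intervals are 95% and cover counting error only (exact Poisson for levels, exact conditional for ratios, exact binomial for shares).

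**Figure D1:**
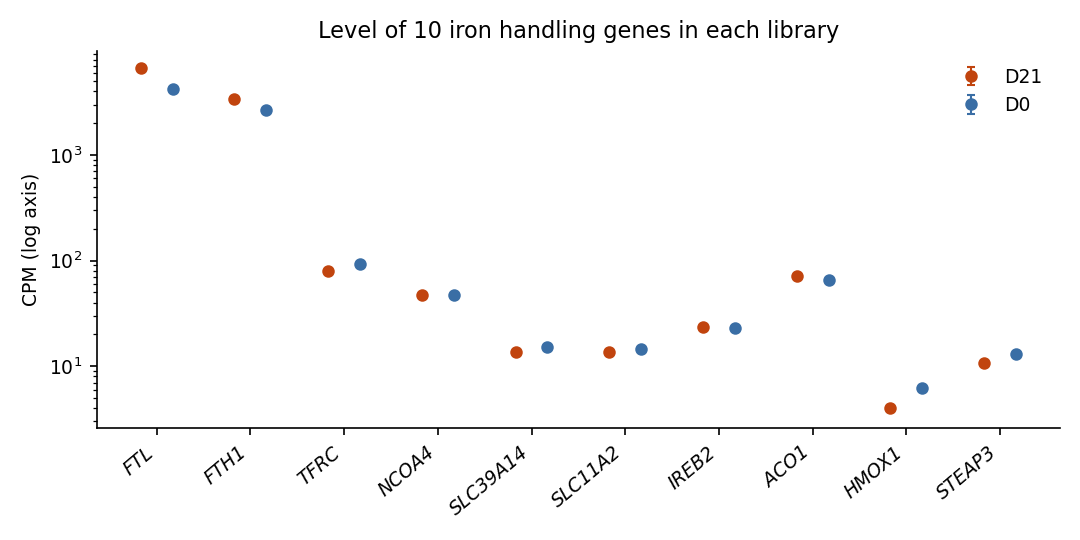
CPM of each member (log axis) over the cells of the D21 library (red) and the D0 library (blue), with exact Poisson 95% intervals that are mostly smaller than the points. FTL and FTH1 lie at or above 2692 CPM in both libraries, and the other 8 members lie at or below 93.7 CPM.

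The ferritin chains were by far the most abundant members. FTL (ENSG00000087086), the light chain, stood at 6668 CPM at D21 and 4261 CPM at D0, a ratio of 1.565 (1.561 to 1.569), or 0.65 on the log2 scale. By its level it was gene number 8 of the D21 library and number 16 of the D0 library. Only 124 genes in 10771 had a higher ratio, and among the 135 genes with a mean of at least 1000 CPM FTL had the second highest.

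FTH1 (ENSG00000167996), the heavy chain with ferroxidase activity, had 3364 CPM at D21 and 2692 CPM at D0. Its ratio of 1.2496 (1.245 to 1.254) was just short of 25%, and its interval reached past that limit. It ranked number 768 of all genes by ratio and number 19 among the 135 abundant genes, of which 18 (13.3%) were at least 25% higher. The chains thus moved by different amounts, so that FTL UMIs per FTH1 UMI were 1.98 at D21 and 1.58 at D0. Both chains together took 1.00% of all cell UMIs at D21 and 0.695% at D0, which is 1.44 times as large a share. Because a D0 cell held more UMIs, the counts per cell ran the other way, with 97.6 FTL and 49.3 FTH1 UMIs per cell at D21 and 104 FTL and 65.8 FTH1 UMIs per cell at D0. The matrices have 0 rows for ferritin pseudogenes, and how reads shared with processed ferritin copies were assigned was not stated in those sources.

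Over all cells the iron importers were lower at D21, each by less than 20%. TFRC (ENSG00000072274), the transferrin receptor that carries iron-loaded transferrin into endosomes, had 80.1 CPM at D21 and 93.7 CPM at D0, a ratio of 0.855 (0.836 to 0.874). SLC39A14 (ZIP14), which imports iron not bound to transferrin, had 13.8 CPM at D21 and 15.3 CPM at D0, a ratio of 0.901 (0.853 to 0.951). SLC11A2 (DMT1), which moves ferrous iron out of endosomes, had 13.6 CPM at D21 and 14.6 CPM at D0, a ratio of 0.928 (0.879 to 0.981). STEAP3, the endosomal reductase that makes that ferrous iron, was at 10.7 CPM at D21 and 12.9 CPM at D0, a ratio of 0.825 (0.777 to 0.877). All 4 intervals lay below 1. Of all genes, 22.6% had a lower ratio than TFRC and 18.0% a lower ratio than STEAP3, so values of this size were common in the comparison.

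The sensors and the ferritin receptor were close to level. ACO1 had 70.9 CPM at D21 and 65.1 CPM at D0, a ratio of 1.09 (1.06 to 1.12). IREB2 had 23.8 CPM at D21 and 23.1 CPM at D0, and its ratio of 1.03 (0.987 to 1.07) had an interval that included 1. NCOA4, which takes ferritin to the lysosome for iron release, had 47.2 CPM at D21 and 47.1 CPM at D0, with a ratio of 1.00 (0.973 to 1.03). The intervals of IREB2 and NCOA4 held no difference as large as 10%, and variation between cultures was not measured.

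HMOX1 (ENSG00000100292), the inducible haem oxygenase that frees iron from haem, was the least abundant member and fell to 4.03 CPM at D21, against 6.20 CPM at D0. The ratio was 0.650 (0.592 to 0.714), or -0.62 on the log2 scale, from 737 UMIs at D21 and 1135 UMIs at D0. Of all genes 96.6% had a higher ratio. HMOX1 and FTL, both counted among NRF2 targets, thus moved in opposite directions.

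**Figure D2:**
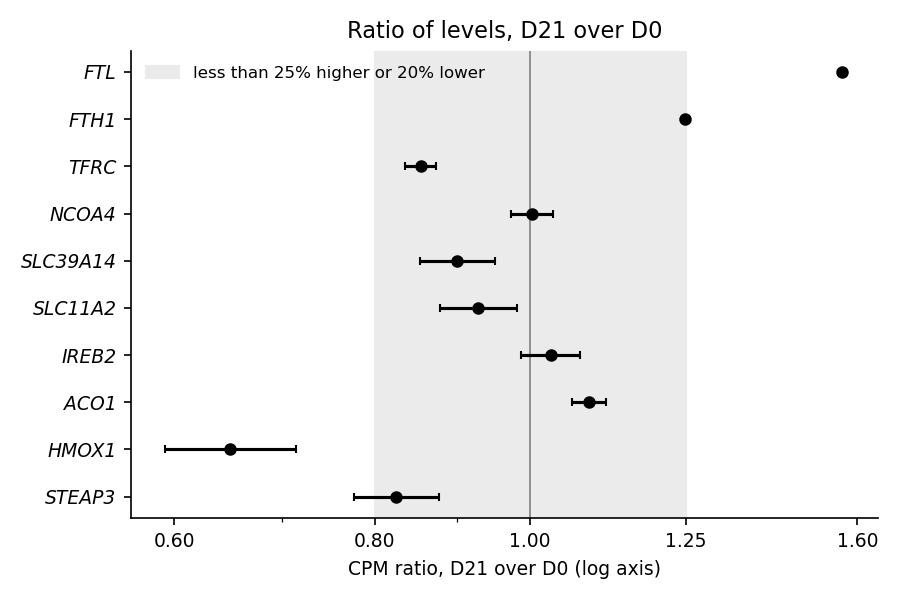
Ratio of CPM, D21 over D0, for each member (log axis), with the exact conditional 95% interval for counting error; the grey band spans ratios under 25% higher and under 20% lower. FTL lies right of the band, HMOX1 lies left of it and FTH1 sits at its right edge.

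The share of cells in which a member was detected followed depth. TFRC was detected in 58.4% of D21 cells and 73.5% of D0 cells, and after each cell had been thinned to 5422 UMIs in 33.3% of D21 cells (32.4 to 34.1) and 36.4% of D0 cells (35.3 to 37.5). NCOA4 was detected in 45.0% of D21 cells and 60.5% of D0 cells, but in 22.4% of D21 cells and 21.8% of D0 cells after thinning. ACO1 likewise gave 55.4% at D21 and 68.8% at D0 as counted, and 30.7% at D21 and 29.1% at D0 after thinning. For these genes most of the difference in detection as counted was absent at equal depth. HMOX1 remained lower at equal depth, in 2.04% of D21 cells (1.8 to 2.31) and 3.19% of D0 cells (2.8 to 3.61), against 5.45% at D21 and 12.5% at D0 as counted. Thinned shares were 5.54% at D21 and 6.67% at D0 for STEAP3, 6.72% at D21 and 8.09% at D0 for SLC11A2, 6.72% at D21 and 7.18% at D0 for SLC39A14, and 11.1% at D21 and 11.7% at D0 for IREB2. FTL was detected in every cell, and FTH1 in all but 2 of the D21 cells.

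Barcodes with at most 100 UMIs, which carry mostly free RNA, held all members. Set against the level in cells of the same library, their levels ranged from 0.625 times for IREB2 at D21 to 1.32 times for FTL at D0. STEAP3 stood at 1.15 times the level of D21 cells and 0.751 times that of D0 cells, and SLC11A2 at 0.766 times that of D0 cells. In them FTL stood at 8383 CPM at D21 and 5630 CPM at D0, 1.26 times the level of D21 cells and 1.32 times the level of D0 cells. FTH1 stood at 3952 CPM at D21 and 3399 CPM at D0, which is 1.17 times the D21 cells and 1.26 times the D0 cells. TFRC was at 84.3 CPM at D21 and 88.5 CPM at D0, and HMOX1 at 4.32 CPM (2.79 to 6.37) at D21 and 6.51 CPM (4.78 to 8.66) at D0. The free RNA of D21 was thus also richer in FTL, while the HMOX1 intervals overlapped. No cell type in a cell line culture lacks these genes, so the free RNA in the detected shares could not be measured directly.

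Ferritin varied widely among cells of the same library. The median cell had 5749 CPM of FTL at D21, with 90% of cells between 2224 and 13924 CPM, and 3464 CPM at D0, with 90% of cells between 1675 and 8726 CPM. Of D21 cells, 81.9% lay above the D0 median and 21.1% above the 95th percentile of D0. For FTH1 the medians were 2681 CPM at D21 and 2226 CPM at D0, and 64.3% of D21 cells lay above the D0 median. The coefficient of variation of FTL was 62.2% at D21 and 77.5% at D0, where counting alone would give 11.5% at D21 and 11.3% at D0. That of FTH1 was 82.7% at D21 and 89.9% at D0. The whole distribution of FTL, rather than a small group of cells, lay higher at D21, while the distributions overlapped. The median cell had 2.05 FTL UMIs per FTH1 UMI at D21 and 1.57 at D0.

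**Figure D3:**
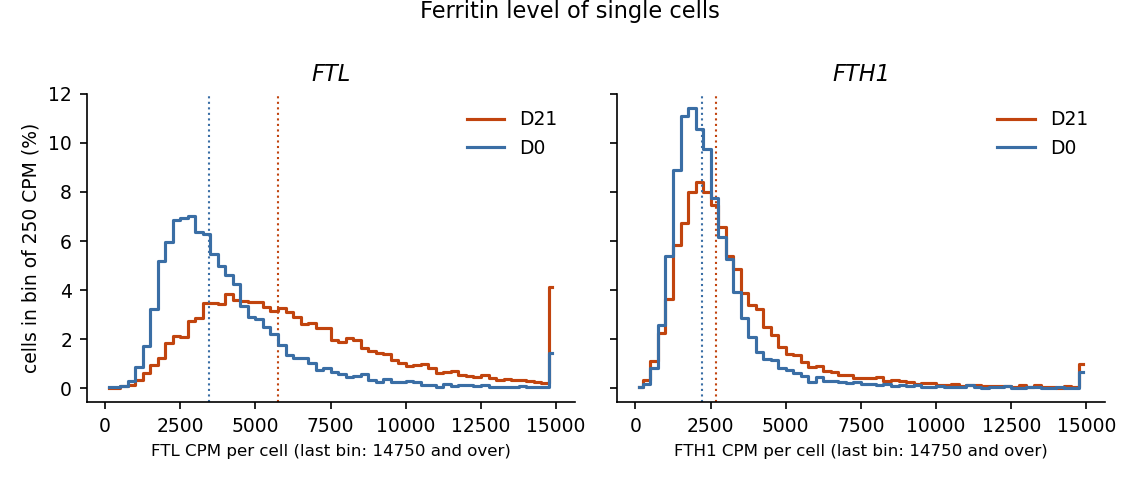
Share of cells (%) in bins of 250 CPM for FTL and FTH1 per cell, D21 red and D0 blue, with dotted lines at the medians and all cells of 14750 CPM and over in the last bin. The FTL medians are 5749 CPM at D21 and 3464 CPM at D0, and the FTH1 medians, 2681 CPM at D21 and 2226 CPM at D0, lie closer together.

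The cells of D21 held fewer UMIs, and the members were therefore compared at equal UMIs per cell. In 4 ranges between 10000 and 50000 UMIs the FTL ratio lay between 1.54 and 1.69 and the HMOX1 ratio between 0.676 and 0.766. The FTH1 ratio was 1.13 in cells of 10000 to 15000 UMIs and 1.31 in cells of 30000 to 50000 UMIs. TFRC varied with depth, with 83.6 CPM at D21 and 83.0 CPM at D0 in cells of 10000 to 15000 UMIs, a ratio of 1.01 (0.955 to 1.06). In cells of 30000 to 50000 UMIs TFRC had 77.1 CPM at D21 and 102 CPM at D0, a ratio of 0.757 (0.718 to 0.799). In cells of 15000 to 20000 UMIs the TFRC ratio was 0.887 (0.842 to 0.936). Of the 4 ranges, only that of 10000 to 15000 UMIs thus lacked the lower TFRC of D21. SLC39A14 likewise had a ratio of 1.04 (0.907 to 1.19) in cells of 10000 to 15000 UMIs and 1.02 (0.888 to 1.17) in cells of 15000 to 20000 UMIs, against 0.876 and 0.883 in the deeper ranges. SLC11A2 ran the other way, at 0.811 and 0.820 in the shallower ranges and at 1.03 (0.918 to 1.15) and 0.938 in the deeper ones. STEAP3 lay between 0.780 and 0.862 in all 4 ranges. At the UMI minimum itself, the 988 D21 barcodes up to 20% above it had 6296 CPM of FTL and the 708 up to 20% below it 6074 CPM, while at D0 the 559 barcodes above had 4422 CPM and the 327 below 4354 CPM.

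Cells were also grouped by genes outside the set. The score was the ratio of 2 summed shares, each taken relative to all cells. One list was SAA1, SAA2, NNMT and CEMIP, and the other was AGR2, SPANXB1 and SOX4. SAA-leaning cells leaned to the first list by at least 2-fold in this ratio, and AGR2-leaning cells to the second. A cell poor in both lists could thus fall in either group, and a cell with UMIs of only 1 list was placed with that list. These gene lists came from earlier results of the same libraries. SAA-leaning cells were 53.7% of D21 cells and 26.6% of D0 cells, and AGR2-leaning cells were 32.7% of D21 cells and 62.2% of D0 cells. The remaining 1694 D21 cells and 840 D0 cells lay between the limits. Cells with no UMI of either list, 868 at D21 and 391 at D0, were placed there. The groups are ranges of a score, with 801 D21 cells and 414 D0 cells within 0.5 log2 units of a limit. SAA-leaning cells had more UMIs than AGR2-leaning cells, with medians of 13316 against 10415 at D21 and 22736 against 17125 at D0.

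The ferritin difference depended on the kind of cell. In SAA-leaning cells FTL was at 7613 CPM at D21 and 4849 CPM at D0, a ratio of 1.57 (1.563 to 1.577), and in AGR2-leaning cells at 5065 CPM at D21 and 3926 CPM at D0, a ratio of 1.29 (1.284 to 1.297). FTH1 was higher at D21 in SAA-leaning cells, with 3874 CPM at D21 and 2920 CPM at D0, a ratio of 1.33 (1.319 to 1.334). In AGR2-leaning cells it was at 2535 CPM at D21 and 2587 CPM at D0, a ratio of 0.980 (0.974 to 0.987). FTL was therefore higher at D21 in both kinds of cell, whereas FTH1 was higher in SAA-leaning cells and 2% lower in AGR2-leaning cells. That 2% is no larger than the shift given to all genes by 1 of the alternative scalings. The D21 groups were also weighted by their shares of D0 UMIs, a setting added after the values had been seen. These shares were 30.3% for SAA-leaning cells, 55.7% for AGR2-leaning cells and 14.0% for cells between the limits. With this weighting the ratio was 1.40 for FTL and 1.11 for FTH1. The same weighting gave 0.782 for TFRC, which is past the 20% limit, 0.809 for SLC39A14 and 0.550 for HMOX1. The share of SAA-leaning cells and the ferritin level were both higher at D21, and the part of that share in the difference was not tested. The genes that define the groups also differed between the libraries, with SAA2 at a ratio of 3.63 and AGR2 at 0.455. A group therefore need not hold the same kind of cell at D21 and D0.

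TFRC, SLC39A14, STEAP3 and HMOX1 were lower at D21 in both kinds of cell, by more than counting error. The groups were not matched for depth between the libraries, and what depth contributed to these values was not tested. Over all cells of 10000 to 15000 UMIs the ratio was 1.01 for TFRC and 1.04 for SLC39A14, but 0.814 for STEAP3 and 0.727 for HMOX1. TFRC had 89.2 CPM at D21 and 103 CPM at D0 in SAA-leaning cells, a ratio of 0.863, and 64.7 CPM at D21 and 87.9 CPM at D0 in AGR2-leaning cells, a ratio of 0.737 (0.708 to 0.767). HMOX1 had 4.88 CPM at D21 and 6.64 CPM at D0 in SAA-leaning cells, a ratio of 0.735 (0.642 to 0.842). In AGR2-leaning cells HMOX1 had 2.64 CPM at D21 and 5.99 CPM at D0, a ratio of 0.442 (0.364 to 0.532). SLC39A14 had a ratio of 0.873 in SAA-leaning and 0.790 in AGR2-leaning cells. STEAP3 had a ratio of 0.860 (0.782 to 0.947) in SAA-leaning and 0.822 (0.743 to 0.907) in AGR2-leaning cells. For SLC11A2 both intervals included 1, with a ratio of 0.950 (0.868 to 1.04) in SAA-leaning and 0.945 (0.866 to 1.03) in AGR2-leaning cells. ACO1, slightly higher at D21 over all cells, had a ratio of 1.03 in SAA-leaning and 0.944 in AGR2-leaning cells, and 0.983 with the groups weighted as at D0. In SAA-leaning cells ACO1 was 1.44 times the AGR2-leaning level at D21 and 1.32 times at D0. The ACO1 ratio of D21 over D0 also varied with depth. It was 1.20 (1.13 to 1.28) in cells of 10000 to 15000 UMIs and 1.04 (0.979 to 1.10) in cells of 30000 to 50000 UMIs. What the share of SAA-leaning cells or depth contributed to the ACO1 value over all cells was not tested.

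Within each library the SAA-leaning cells carried more ferritin. FTL was 1.50 times the AGR2-leaning level at D21 and 1.24 times at D0, and FTH1 was 1.53 times at D21 and 1.13 times at D0. HMOX1 was 1.85 times (1.53 to 2.24) at D21 and 1.11 times (0.972 to 1.26) at D0. SLC39A14 was 1.48 times at D21 and 1.34 times at D0, while SLC11A2 was lower, at 0.863 times at D21 and 0.859 times at D0. Mitotic cells, the 10% with the highest share of UMIs from genes such as MKI67 and TOP2A, had less ferritin, with FTL at 0.744 times the other cells at D21 and 0.683 times at D0. TFRC, by contrast, was 1.22 times the other cells at D21 and 1.13 times at D0 in mitotic cells. Mitotic cells held more UMIs than the other cells, with medians of 14712 against 11781 at D21 and 22996 against 18409 at D0. The part of depth in these values was not tested.

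**Figure D4:**
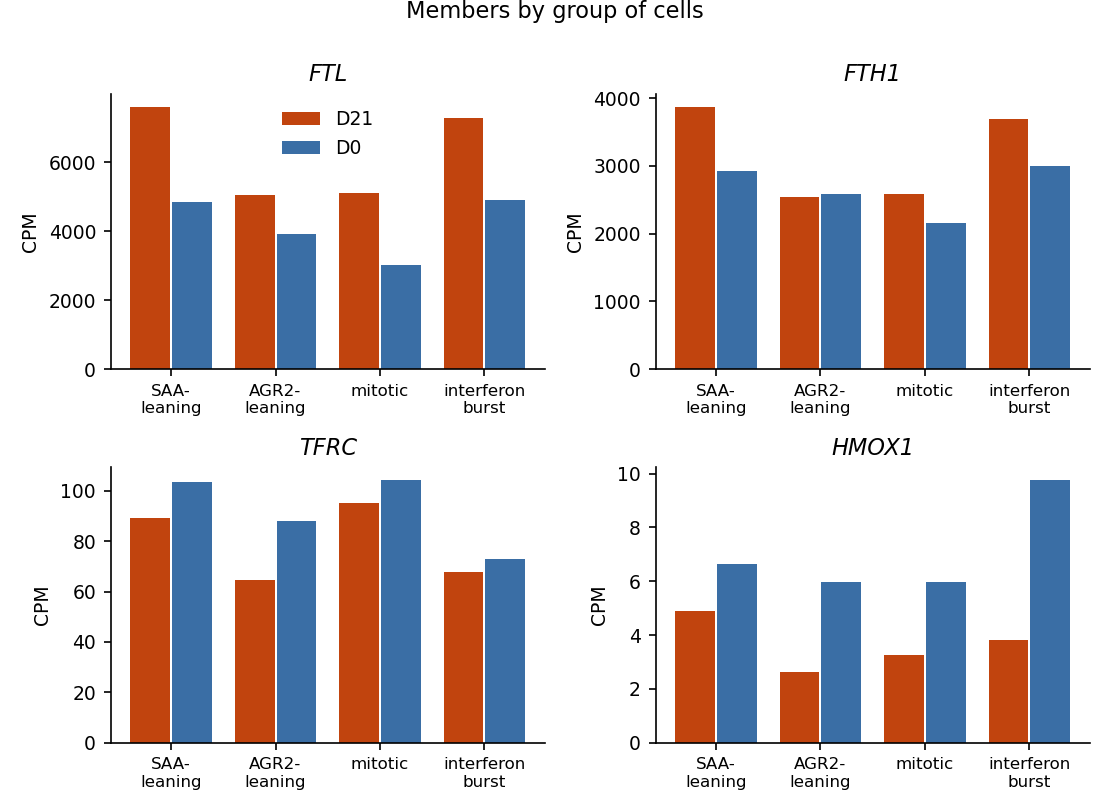
CPM of FTL, FTH1, TFRC and HMOX1 in SAA-leaning, AGR2-leaning, mitotic and interferon-burst cells (at least 10 UMIs of IFIT1, IFIT2, IFIT3 and OASL) of the D21 library (red, left) and the D0 library (blue, right); bars are summed counts of 1 library, without error bars. FTL is higher and TFRC and HMOX1 are lower at D21 in every group, and FTH1 in AGR2-leaning cells is 2535 CPM at D21 and 2587 CPM at D0. The TFRC ratio in interferon-burst cells, 0.929 (0.836 to 1.03), has a counting interval that includes 1.

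The cells highest in ferritin had less TFRC and more HMOX1 in both libraries. The 5% of cells with the largest ferritin share comprised 625 cells at D21, each with over 2.09% of its UMIs from ferritin, and 375 cells at D0, each with over 1.41%. The highest cell reached 11.4% at D21 and 9.62% at D0. TFRC in these cells was 67.8 CPM, against 80.7 CPM in the other cells, at D21, a ratio of 0.840 (0.768 to 0.917), and 57.3 CPM, against 95.5 CPM, at D0, a ratio of 0.601 (0.547 to 0.658). HMOX1 was 6.66 CPM, against 3.92 CPM, at D21, a ratio of 1.70 (1.254 to 2.262), and 12.1 CPM, against 5.92 CPM, at D0, a ratio of 2.05 (1.65 to 2.52). HMOX1 was thus higher in these top cells of each library, and lower in the library with more ferritin. This rests on the top 5% of cells, with 51 HMOX1 UMIs at D21 and 100 at D0. NCOA4, SLC39A14, SLC11A2, IREB2 and STEAP3 had intervals that included 1 in both libraries, and ACO1 was at 0.975 (0.892 to 1.06) at D21 and 0.887 (0.808 to 0.972) at D0. SAA-leaning cells made up 83.8% of the top cells at D21 and 43.2% at D0. The top cells held fewer UMIs, with medians of 9981 against 12153 at D21 and 16133 against 19072 at D0. The parts of depth and of the share of SAA-leaning cells in these ratios were not tested.

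**Figure D5:**
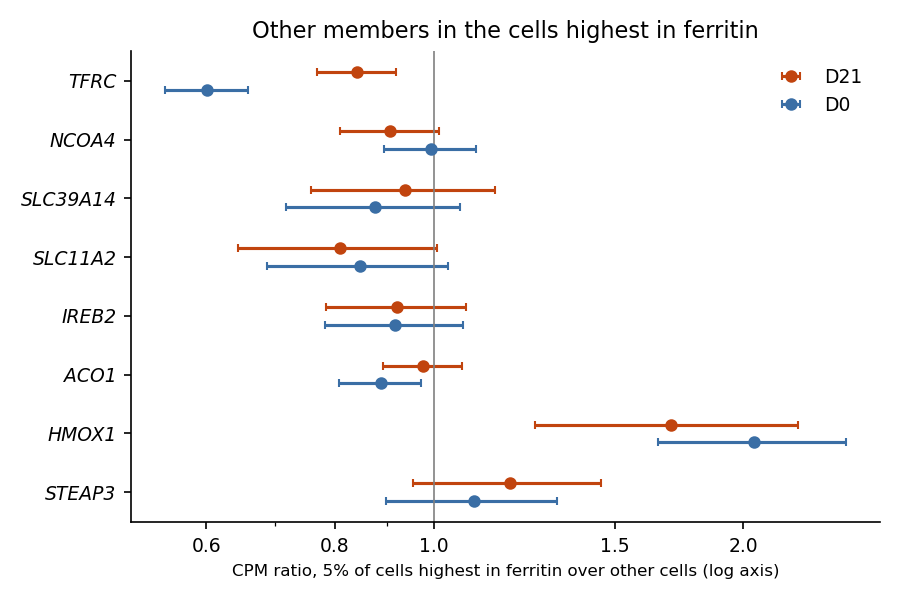
Ratio of CPM in the 5% of cells highest in ferritin over the other cells of the same library (log axis), for the 8 other members, D21 red above D0 blue, with exact conditional 95% intervals for counting error. TFRC lies left of 1 and HMOX1 right of 1 in both libraries.

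Across cells the closest companion of each ferritin chain was the other. Over 3373 other genes with a mean of at least 50 CPM, and on log values scaled to 10000 UMIs per cell, FTH1 had the highest Pearson correlation with FTL, at r = 0.63 over 12487 D21 cells and r = 0.75 over 7492 D0 cells. The next genes for FTL were EEF1A1, a translation elongation factor, SQSTM1, the autophagy receptor p62, BRI3 and NNMT, with r between 0.32 and 0.44. NNMT also defined the SAA-leaning cells. For FTH1 they included the class I antigen gene HLA-B, PLAAT4 and the death ligand TNFSF10, with r between 0.33 and 0.44. TFRC went with NCL and SET, of the nucleolus and chromatin, the mitochondrial chaperone HSPD1, HNRNPAB and ALCAM, with r between 0.21 and 0.33. TFRC and FTL had r = 0.01 at D21 and r = -0.21 at D0, and TFRC and FTH1 r = -0.06 at D21 and r = -0.27 at D0. Genes of 1 cell share its depth and free RNA, and abundant genes reach higher correlations in sparse counts, so these values are descriptions. The correlation with the logarithm of UMIs per cell was at most 0.12 in size for FTL, FTH1 and TFRC.

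Wider iron pathways were read from 12 lists written from general knowledge with earlier results known. Over all lists, 33 measured genes were higher and 52 lower at D21, 6 of them at least 25% higher and 13 at least 20% lower. These counts include the 10 members. Of all genes, 47.5% were higher, 7.08% by at least 25%, and 14.6% were at least 20% lower, so the counts over the lists lay near the background and are not a result about them. Haem synthesis had 8 of 10 genes lower and 4 of them by at least 20%, with a median log2 ratio of -0.20, which is read against the 14.6% of all genes that passed this limit and is not a result about the pathway. These were ABCB6, a porphyrin transporter (3.48 CPM at D21 and 7.27 CPM at D0, ratio 0.478), UROS (51.9 CPM at D21 and 74.5 CPM at D0, ratio 0.697), ALAD (ratio 0.708) and PPOX (ratio 0.772), which are enzymes of the pathway. ABCB6 and ALAD, below 5 CPM at D21, passed the filter only through their D0 levels, as did SLC48A1, HFE and MAFK in other lists. Haem breakdown and transport had 5 of 6 genes lower, where SLC48A1, a haem transporter, fell (ratio 0.798), as did HMOX1, and the constitutive oxygenase HMOX2 had 36.0 CPM at D21 and 44.0 CPM at D0. BLVRB, a biliverdin reductase, had 142 CPM at D21 and 120 CPM at D0.

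Mitochondrial iron import and iron-sulfur cluster assembly had 11 of 17 genes higher, against 47.5% of all genes, and a median log2 ratio of 0.11. At least 25% higher were 2 of them, a size that 7.08% of all genes reached. The scaffold ISCU had 107 CPM at D21 and 80.7 CPM at D0, a ratio of 1.33 (1.30 to 1.36), and its partner LYRM4 had 113 CPM at D21 and 87.9 CPM at D0, a ratio of 1.29. BOLA3 and FDX2 had ratios of 1.24 and 1.18, short of 25%. Cytosolic iron-sulfur assembly had 2 of 9 genes higher, and only CIAO3 was past a limit, lower at D21 (ratio 0.794). CIAO2B had a ratio of 1.21, NUBP2 of 0.848 and NUBP1 of 0.871. In iron uptake and reduction 6 of 8 measured genes were lower, and the reductase family member STEAP1 fell to 13.6 CPM at D21, against 20.7 CPM at D0 (ratio 0.658). STEAP2 had 5.52 CPM at D21 and 4.76 CPM at D0, a ratio of 1.16. Being below 5 CPM at D0, STEAP2 passed the filter only through its D21 level. Beside ferritin, the iron chaperones PCBP1 and PCBP2 had ratios of 0.952 and 0.974, so that storage had 3 of 5 genes higher. All 3 were the members FTL, FTH1 and NCOA4. Iron sensing had 3 of 4 genes higher, among them the members ACO1 and IREB2. FBXL5, which marks IRP2 for degradation, had a ratio of 1.13, and HFE was past the limit at 0.772.

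NRF2 targets were divided, with 4 of 11 genes higher, 7 lower and a median of -0.04. TXN, the thioredoxin gene, rose to 1992 CPM at D21, against 1497 CPM at D0 (ratio 1.33). NQO1 had a ratio of 1.17 and OSGIN1 of 0.826. Among the NRF2 and BACH1 regulators 5 of 6 genes were lower, MAFK by over 20% (ratio 0.649), and MAFF, MAFG and KEAP1 had ratios of 0.818, 0.836 and 0.868. Of the genes of lipid peroxidation and ferroptosis 4 of 6 were lower, with ACSL4, which charges polyunsaturated fatty acids, at 85.2 CPM at D21 and 124 CPM at D0 (ratio 0.689) and LPCAT3, which places them in phospholipids, at 9.54 CPM at D21 and 15.2 CPM at D0 (ratio 0.626). AIFM2 had a ratio of 0.817 and SLC3A2 of 1.12. Of 4 measured further genes with a known IRE, EPAS1, encoding HIF-2α, rose to 39.2 CPM at D21, against 26.0 CPM at D0 (ratio 1.51). CDC14A had a ratio of 1.38, while CDC42BPA had a ratio of 1.00. Among all genes, 47.5% were higher, 7.08% passed the limit for higher genes and 14.6% were at least 20% lower. The counts in these lists of 4 to 11 genes are read against those shares and are not a result about any list.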

How the data were processed

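UMI counts per gene and barcode, deposited as raw counts, were made by the authors from 10x Genomics Single Cell 3′ libraries. The matrix headers name Cell Ranger 4, and the submitters' processing notes name GRCh38; how reads were aligned and annotated was not stated in the sources used here. The deposited gene and barcode names (another kind of column) were used as they stand. The D21 library held 199817213 UMIs and the D0 library 199799447.

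Cells were barcodes with at least 10% of the UMIs at the 99th percentile of the top 5000 barcodes (5422 at D21, 9009 at D0), at least 500 genes and at most 20% mitochondrial UMIs, which removed 38 of 12525 called barcodes at D21 and 11 of 7503 at D0. No doublet caller was run. UMIs were summed over cells and given as CPM of all cell UMIs, with exact 95% intervals (scipy 1.17.1, numpy 2.4.6, pandas 2.3.3). With 1 library per group no test was made, and a difference was counted as higher or lower if at least 25% higher or 20% lower, among genes with a mean of at least 5 CPM. Named genes are the 10 members, the 4 with the largest ratio in size per list, and the 5 best correlated with FTL, FTH1 and TFRC. A few genes taken by this rule are not reported here. LCN2 and SLC40A1 were named after their values had been seen. The members, lists and groups of cells were chosen with earlier results of these data known. Interval and thinning code was tested on simulated data. Alternatives changed cell calling, the mitochondrial limit, the cells with the most UMIs, weighting, depth, the filter and scaling (edgeR 4.0.16 TMM, median of ratios). IREs were searched in GENCODE 29 transcripts, and sequence entries of members were matched in the RefSeq promoter table.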

Additional observations from a re-analysis of the deposited data

Results flagged for a closer look

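FTH1 was higher at D21 in 1 kind of cell and close to level in another. Its ratio of D21 over D0 was 1.33 in SAA-leaning cells and 0.980 in AGR2-leaning cells, and both counting intervals excluded 1 on opposite sides. There is 1 library per condition, so the difference between the 2 ratios was not tested, and the shift in AGR2-leaning cells is 2% in size. That is no larger than the shift given to all genes by 1 of the alternative scalings. The AGR2-leaning cells were also not matched for depth, with medians of 10415 UMIs at D21 and 17125 at D0.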

How the results depend on the processing

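Directions and calls (25% higher or 20% lower) were compared over 12 alternatives to cell calling, depth, weighting and scaling, beside the weighting by cell group given above. FTL stayed between 0.63 and 0.68 (log2) and past the limit in 12 of 12, and HMOX1 between -0.75 and -0.59, past the limit in 12 of 12. FTH1 lay between 0.31 and 0.35 and reached 25% in 5 of 12, so that 2 members were at least 25% higher with the UMI minimum at 20%, without the 6% of cells with the most UMIs, with thinned cells, without mitochondrial and ribosomal protein genes in the total, and without FTL and FTH1 in the total. The number of members higher at D21 was 3 without the cells with the most UMIs, as a mean over cells and after thinning, where NCOA4 and IREB2 turned just below 0. The number at least 20% lower was 0 without the cells with the most UMIs, as a mean over cells and with a minimum of 20 CPM, since HMOX1 then fell below the minimum level. A minimum of 20 CPM left 32 list genes lower, 3 of them by at least 20%, and no minimum put 22.9% of genes higher and 22.2% lower past these limits. Scaling shifted all genes by at most 0.03 in size (log2). No paired analysis was possible because each group has 1 library. Variation between cultures cannot be shown with 1 library per condition.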

Other observations

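Iron export genes were near the floor, with none of 4 at a mean of 5 CPM. SLC40A1, the ferroportin gene and sole known cellular iron exporter, had 1.84 CPM at D21 and 1.49 CPM at D0, a ratio of 1.24 (1.05 to 1.46). LCN2, encoding a siderophore-binding protein, was below the minimum level but had 5.37 CPM at D21 and 1.71 CPM at D0, a ratio of 3.14 (2.76 to 3.58).

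Interferon-burst cells, 399 at D21 and 413 at D0, had slightly more ferritin and less TFRC than the other cells of their library. FTL was 1.10 times the other cells at D21 and 1.17 times at D0, and TFRC 0.840 times at D21 and 0.763 times at D0. HMOX1 was 0.946 times (0.633 to 1.36) at D21, from 30 UMIs, and 1.66 times (1.39 to 1.98) at D0, from 149 UMIs. Interferon-burst cells held more UMIs than the other cells, with medians of 16018 against 11918 at D21 and 30445 against 18575 at D0. The part of depth was not tested.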
